A study of Homo sapiens with 10 samples.

Results

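The genes described here are 57 extracellular matrix, integrin and protease genes, among 63152 gene identifiers in each expression table of the series. They were taken by symbol from a list of 6 classes: 16 structural matrix genes, 15 basement membrane genes, 4 matricellular genes, 10 integrin subunits, 10 proteases and their inhibitors, and 2 TGF-beta ligands. SPARC and an alternative second exon of ITGB1 were selected on the values measured in these tables. Their values are therefore given below as a description with no test, and the other genes were listed with those results known. All libraries came from C33A, a human cervical carcinoma cell line described as deficient in both SWI/SNF ATPases, BRG1 and BRM. The cells were harvested 48 h after transient transfection, and each of the 5 groups had 2 replicates, 10 libraries in all. Control cells received the empty vector pOPRSVI and BRG1-wt cells received pBJ5-BRG1. BRG1-mut cells received pBJ5-BRG1-K798R, which encodes a BRG1 without ATPase activity. BRM-wt cells received pCG-hBrm, and BRM-mut cells received pCG-hBrm-K798R, the ATPase-deficient BRM. The empty vector is not the backbone of the pBJ5 or the pCG plasmids, so a contrast with control alone does not tell an effect of the backbone from one of the ATPase. The wild type and the mutant of each ATPase share their backbone.

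SWI/SNF complexes use ATP to move nucleosomes and open promoters and enhancers. Matrix genes encode collagens, laminins and other secreted proteins that surround the cell, integrins are the cell-surface receptors that bind them, and matrix metalloproteinases and the plasminogen activator system cut them. Matricellular proteins such as SPARC and thrombospondins are secreted into the matrix but act mainly as signals to cells.

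The 4 expression tables set the 2 libraries of a group against the same 2 control libraries, so the tables are not independent of each other. Each gives the base mean (the mean over the 4 libraries of the size-factor normalised read count), a log2 fold change that DESeq2 shrinks towards 0, its standard error (SE) and p-values. No table holds counts per library, so levels per replicate and the depth behind a value are unknown, and whether the replicates came from separate cultures is not stated. The transfected genes were in place. SMARCA4, which encodes BRG1, had a log2 fold change of 2.77 (SE 0.17) in BRG1-wt and 3.64 (SE 0.23) in BRG1-mut. SMARCA2, which encodes BRM, had 2.20 (SE 0.28) in BRM-wt and 2.11 (SE 0.16) in BRM-mut. SMARCA4 transcript was also present without transfection, with base means of 3864 in BRM-wt and 3076 in BRM-mut. SMARCA2 reached base means of 59658 and 75591 with BRM-wt and BRM-mut but 12.6 and 9.33 with BRG1-wt and BRG1-mut, which shows how strongly the log2 fold changes were shrunk.

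Because base means are not shrunk, they give a lower bound on a change. A base mean is the average of the control level and the group level, so the lowest base mean of a gene among the 4 tables limits how high its control level can be. The bounds below were computed after the tables were scaled to a median ratio of 1, and they shift with this scaling. They were limited to genes whose base mean reached 1 in every table compared, and they cover neither counting error nor the spread between replicates.

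The identity of the cells was checked with 17 marker genes. VIM, a mesenchymal intermediate filament gene, was high in every table, with base means of 11103 to 12049. Of the 5 epithelial markers, KRT8 and KRT18 were higher in both wild-type groups, and their class summed to a base mean of 1183 in BRG1-wt and 991.2 in BRM-wt against 439.05 in BRG1-mut and 389.2 in BRM-mut. The epithelial markers KRT19, CDH1 and EPCAM were low, with base means of at most 1.23, 6.27 and 30.2. The 6 fibroblast or mesenchymal markers summed to 12157 to 13203, most of it VIM. Of that class, PDGFRA and THY1 had base means of 315 to 713, and PDGFRB, DCN and LUM at most 38.9, 11.6 and 39.0. The 4 immune markers summed to 1539 to 1859, almost all of it PTPRC, while CD3E was at 0. The 2 endothelial markers, CDH5 and KDR, summed to 14.8 in BRG1-wt and 14.7 in BRM-wt against 4.26 in BRG1-mut and 6.28 in BRM-mut, so this low class was also higher in the wild-type tables. None of these 3 classes had a gene with an adjusted p under 0.05. The part of the keratin and endothelial marker shifts in the results below was not tested. In whole-culture RNA, more transcript per cell and more transfected cells cannot be told apart.

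Most of these genes were expressed. Of the 57, 34 had a base mean of at least 100 in every table, and COL6A3, FBN2 and LAMA4 were under 10 in all 4. Per kilobase of exon, the highest level was that of COL5A2, a chain of fibrillar collagen V, with a mean of 10546 normalised reads per kb over the 4 tables. TIMP1, an inhibitor of metalloproteinases, followed at 3272 and ITGB1, the shared beta subunit of many integrins, at 2690 (COL5A2 and TIMP1 were named after their values were seen). These 3 genes were not called in any table. SPARC lay at place 33 of the 57 in the same order of levels per kb, and PLAT at place 52.

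In BRG1-wt, 11 of the 54 members tested (20.4%) had an adjusted p under 0.05 by DESeq2, higher than control, while 1.38% of all 18391 genes tested were called. The median log2 fold change was 0.28 over the members and 0.00 over all genes tested. In BRM-wt, 4 of 54 (7.41%) were called against 0.567% of all genes tested, and the members' median was 0.26 against 0.01. In BRG1-mut, 6 of 39 (15.4%) were called against 4.86% of all genes tested, with medians of 0.36 and -0.03. SPARC, TGFBI, MMP2 and PLAT were among the members that DESeq2 left without an adjusted p there because of their low base means. In BRM-mut, none of 55 was called against 0.00703% of all genes, 1 member had an unadjusted p under 0.05 (ITGA2), and the medians were -0.01 and -0.00. No gene of any kind was called lower in any table: the calls over all genes tested were 253 with BRG1-wt, 658 with BRG1-mut, 101 with BRM-wt and 2 with BRM-mut, all higher. The direction of the members' calls is thus that of every called gene. Since SPARC was selected on these contrasts and the other members were listed with earlier results of these data known, the counts are descriptions.

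**Figure D1:**
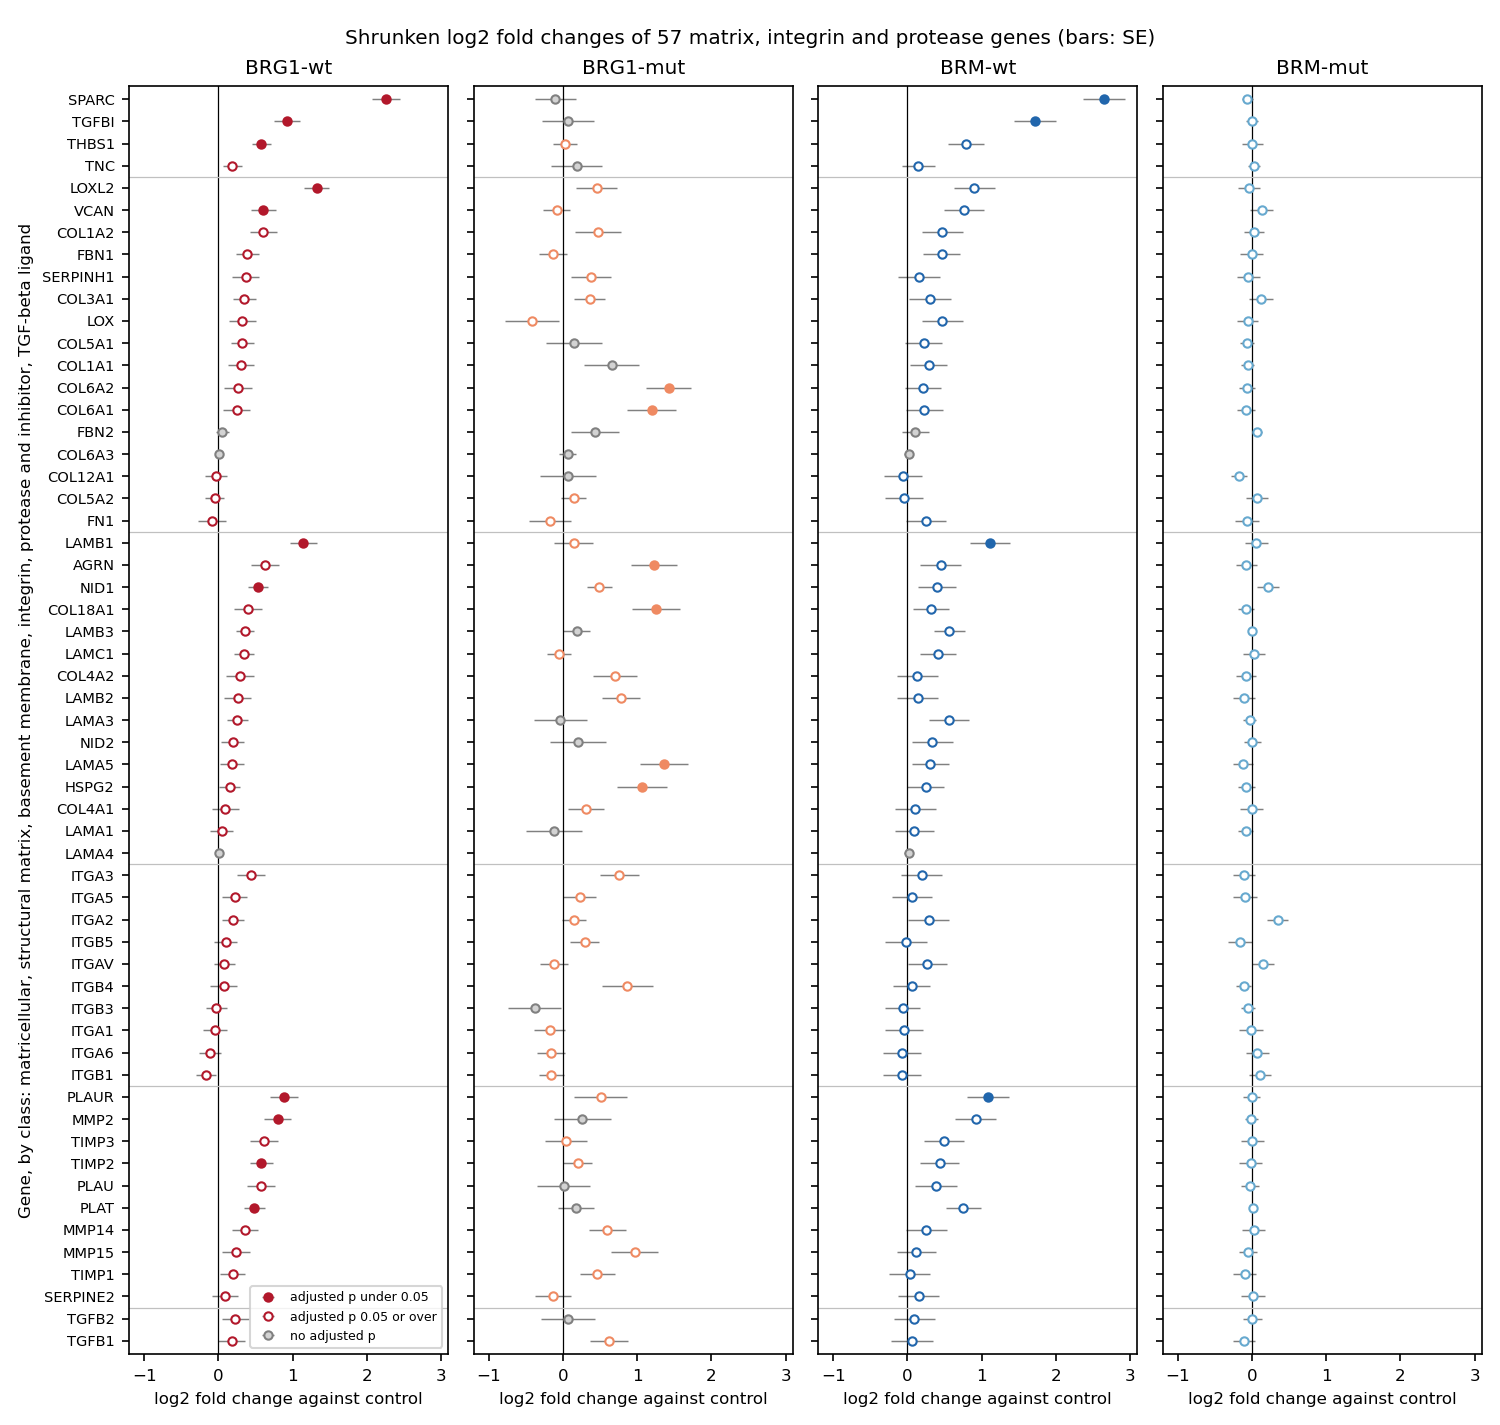
Shrunken log2 fold change against control (x axis) of each of the 57 genes (y axis, grouped by class), with a panel per table and bars for 1 SE. Filled points are genes with an adjusted p under 0.05. The 11 in BRG1-wt and 4 in BRM-wt include SPARC at the top, the 6 in BRG1-mut include COL6A2 and LAMA5, and the BRM-mut points lie close to 0.

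SPARC, TGFBI, LAMB1 and PLAUR were called in both wild-type tables, which use the same control libraries. The 250 bases before the annotated start of these 4 genes are shown because the genes rose in both tables. They are from RefSeq (GRCh38.p14), 5′ to 3′ on the strand of the gene, with the letters of any motif searched in capitals.
SPARC, chr5:151686916-151687165, minus strand: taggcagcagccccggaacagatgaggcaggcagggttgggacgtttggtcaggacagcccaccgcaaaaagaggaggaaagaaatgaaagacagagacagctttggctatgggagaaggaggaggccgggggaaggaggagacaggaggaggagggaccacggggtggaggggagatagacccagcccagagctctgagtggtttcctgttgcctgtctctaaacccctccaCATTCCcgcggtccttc
TGFBI, chr5:136028738-136028987, plus strand: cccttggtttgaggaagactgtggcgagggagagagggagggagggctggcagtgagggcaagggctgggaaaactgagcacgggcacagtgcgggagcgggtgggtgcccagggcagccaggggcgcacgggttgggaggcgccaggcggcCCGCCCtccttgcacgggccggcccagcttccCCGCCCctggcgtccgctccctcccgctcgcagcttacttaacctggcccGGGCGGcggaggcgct
LAMB1, chr7:108003162-108003411, minus strand: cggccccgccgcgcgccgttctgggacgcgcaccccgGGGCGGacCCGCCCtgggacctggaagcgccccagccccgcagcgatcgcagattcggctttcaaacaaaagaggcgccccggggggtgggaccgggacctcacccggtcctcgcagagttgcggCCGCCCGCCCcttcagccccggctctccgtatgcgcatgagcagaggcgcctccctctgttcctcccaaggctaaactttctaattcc
PLAUR, chr19:43670170-43670419, minus strand: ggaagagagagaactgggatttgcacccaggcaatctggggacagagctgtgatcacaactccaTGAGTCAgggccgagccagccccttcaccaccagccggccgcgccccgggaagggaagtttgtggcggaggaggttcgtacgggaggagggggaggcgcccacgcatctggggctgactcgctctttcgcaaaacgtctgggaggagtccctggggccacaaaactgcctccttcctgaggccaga

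The motifs were searched on both strands of windows from 250 bases before to 50 bases after the start, in the 43 members with a RefSeq promoter and in all 27305 promoters of the table. They were the AP-1 site TGANTCA, the TEAD site GGAATG, the GC box GGGCGG and the TATA box TATAAA. The PLAUR promoter held an AP-1 site 186 bases before the start, where 4 of the 43 members (9.30%) and 7.90% of all promoters held it. The SPARC promoter held a TEAD site 17 bases before the start, a motif in 6 of 43 (14.0%) and in 14.2% of all promoters. LAMB1 and TGFBI each held 4 GC boxes, 2 of which overlap in LAMB1 and 1 of which lies after the start in TGFBI. A GC box was found in 31 of 43 members (72.1%) and in 43.8% of all promoters, and the median GC content of these windows was 69% and 58%. The TATA box was in none of the 4 promoters, and in 4 of 43 members (9.30%) and 12.1% of all promoters. A match is a string of letters and not a binding site.

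SPARC (ENSG00000113140, GRCh37 chr5:151040657-151066536, minus strand) encodes osteonectin, a collagen-binding matricellular protein. Its base mean was 184 in BRG1-wt and 153 in BRM-wt but 6.18 in BRG1-mut and 5.54 in BRM-mut. The wild-type tables therefore lay far above both mutant tables. The shrunken log2 fold change was 2.26 (SE 0.19) with BRG1-wt and 2.65 (SE 0.28) with BRM-wt. With the mutants it was -0.10 (SE 0.28) for BRG1 and -0.06 (SE 0.07) for BRM. The base means put the level of SPARC in BRG1-wt at least 33.1-fold and in BRM-wt at least 28.2-fold above control. After scaling, each wild-type ATPase exceeded its mutant by at least 29.2-fold. With the base means as deposited, this bound was 29.8-fold for BRG1 and 27.6-fold for BRM. The difference has no test, since no values per library were given.

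TGFBI (ENSG00000120708, chr5:135364677-135399507), whose product is a TGF-beta induced protein that binds integrins and collagen, had a like pattern. Its base mean was 54.8 in BRG1-wt and 59.7 in BRM-wt, and 8.02 and 7.90 in BRG1-mut and BRM-mut. The log2 fold change was 0.93 (SE 0.17, adjusted p 2.05e-05) in BRG1-wt and 1.72 (SE 0.28, adjusted p 8.66e-07) in BRM-wt. The level was at least 6.1-fold and 7.0-fold above control, and at least 6.7-fold and 8.0-fold above the corresponding mutant. THBS1, which encodes the matricellular thrombospondin 1, was far more abundant, with base means of 17599 in BRG1-wt, 13425 in BRG1-mut, 19759 in BRM-wt and 13908 in BRM-mut. It rose in BRG1-wt (log2 fold change 0.58, adjusted p 0.000484). In BRM-wt its log2 fold change was 0.79 with an adjusted p of 0.118. TNC, the remaining matricellular gene, was called in no table.

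**Figure D2:**
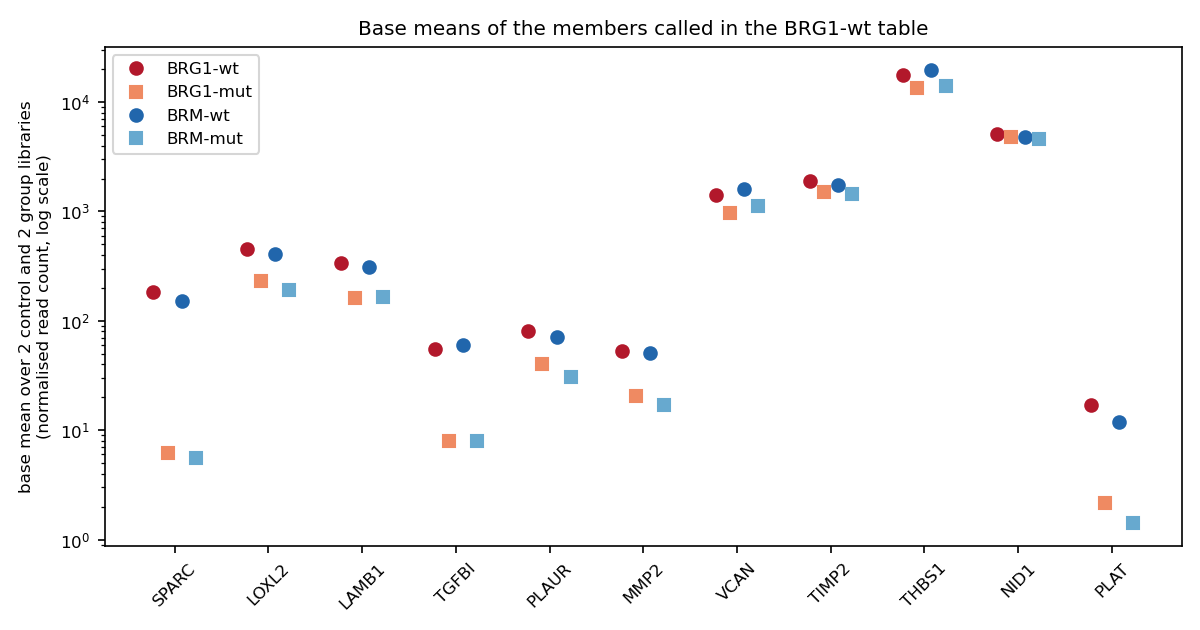
Base mean (y axis, normalised read count on a log scale, over 2 control and 2 group libraries) of the 11 genes called in BRG1-wt (x axis), with a point per table. Circles are the wild-type tables and squares the mutant tables. SPARC is at 184 and 153 in the wild-type tables and at 6.18 and 5.54 in the mutant tables, while NID1 differs little between tables.

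Among the 15 basement membrane genes, LAMB1 and NID1 rose in BRG1-wt and LAMB1 in BRM-wt. LAMB1 (ENSG00000091136, chr7:107564244-107643658), the laminin beta 1 chain, had base means of 336 in BRG1-wt and 307 in BRM-wt against 161 in BRG1-mut and 166 in BRM-mut. Its log2 fold change was 1.15 (SE 0.18, adjusted p 4.39e-08) in BRG1-wt and 1.11 (SE 0.26, adjusted p 0.00663) in BRM-wt. The wild-type level was at least 2.04-fold above the mutant for BRG1 and 1.96-fold for BRM (2.09-fold and 1.85-fold with the base means as deposited). NID1, which links laminin to collagen IV, had a log2 fold change of 0.54 (adjusted p 0.00788) in BRG1-wt and 0.40 (adjusted p 1.00) in BRM-wt. In BRG1-mut it was 0.49 with an adjusted p of 0.0580, so the BRG1 tables gave close values on either side of the threshold. LAMB3, the laminin beta 3 chain of epithelia (named after its values were seen), was not called but had base means of 13.0 and 11.5 in BRG1-wt and BRM-wt and 1.54 and 0.258 in BRG1-mut and BRM-mut.

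Of the 16 structural matrix genes, LOXL2 and VCAN rose in BRG1-wt and none was called in BRM-wt. LOXL2, a lysyl oxidase that crosslinks collagen, had base means of 456 in BRG1-wt, 232 in BRG1-mut, 409 in BRM-wt and 190 in BRM-mut. Its log2 fold change was 1.32 (SE 0.17, adjusted p 9.25e-12) in BRG1-wt and 0.90 (SE 0.28, adjusted p 0.164) in BRM-wt. The base means put LOXL2 in BRM-wt at least 2.28-fold above BRM-mut, although the BRM-wt contrast with control missed the threshold. VCAN, which encodes the proteoglycan versican, had 0.61 (adjusted p 0.0237) in BRG1-wt and 0.77 (adjusted p 0.441) in BRM-wt, with base means of 974 to 1618. FN1, which encodes fibronectin, was among the 3 lowest members at a base mean of 100 or more in BRG1-wt, at -0.09 (adjusted p 1.00), and in BRG1-mut, at -0.18 (adjusted p 0.784).

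The class of proteases and inhibitors held 4 of the 11 genes that rose in BRG1-wt. PLAUR (ENSG00000011422, chr19:44150247-44174699), the urokinase receptor, had base means of 80.5 in BRG1-wt, 40.1 in BRG1-mut, 70.5 in BRM-wt and 30.9 in BRM-mut. Its log2 fold change was 0.88 (SE 0.19, adjusted p 0.000406) in BRG1-wt and 1.09 (SE 0.28, adjusted p 0.0200) in BRM-wt, and its level was at least 1.66-fold and 1.42-fold above control. PLAT, the tissue plasminogen activator, was low, with base means of 16.9 and 11.8 in BRG1-wt and BRM-wt and 2.14 and 1.41 in the mutants. It was called in BRG1-wt (log2 fold change 0.48, adjusted p 0.0375), where the base means put its level at least 11.3-fold above control. In BRM-wt the bound was 7.88-fold with an adjusted p of 0.202. MMP2, a gelatinase, had 0.80 (adjusted p 0.00141) in BRG1-wt and 0.92 (adjusted p 0.126) in BRM-wt, with levels at least 2.55-fold and 3.15-fold above the corresponding mutants. TIMP2, an inhibitor of MMP2 and other metalloproteinases, had 0.58 (adjusted p 0.0137) in BRG1-wt and 0.43 (adjusted p 1.00) in BRM-wt. Whether BRG1-wt and BRM-wt differed for the genes called in BRG1-wt alone was not tested.

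In BRG1-mut, 4 basement membrane genes and 2 structural matrix genes rose. COL6A2, a chain of the microfibrillar collagen VI, had its highest base mean, 278, in BRG1-mut, against 157 with BRG1-wt, 170 with BRM-wt and 108 with BRM-mut. Its log2 fold change in BRG1-mut was 1.43 (SE 0.31, adjusted p 0.00689). LAMA5, the laminin alpha 5 chain, had 1.37 (adjusted p 0.0132), and COL18A1, the source of endostatin, had 1.26 (adjusted p 0.0173). The basement membrane proteoglycans AGRN and HSPG2 had 1.23 (adjusted p 0.0165) and 1.07 (adjusted p 0.0412), and COL6A1 had 1.20 (adjusted p 0.0246). COL6A2 was at least 1.81-fold and LAMA5 at least 1.69-fold higher in BRG1-mut than in BRG1-wt. Against BRM-mut, COL6A2 was at least 2.69-fold and LAMA5 at least 2.68-fold higher.

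All 6 genes are rich in G and C. Their exons held 63.5% to 66.8% GC, whereas those of the other members with a base mean of at least 100 held 36.7% to 65.0%, with a median of 48.4%. Over the 37 members at that level in BRG1-mut, log2 fold change and exonic GC content had a Spearman rho of 0.91, and over all 11708 genes it was 0.83. In BRM-mut it was -0.70 over 34 members and -0.74 over all genes. In BRG1-wt it was 0.17 over 38 members and 0.58 over all genes, and in BRM-wt -0.11 and 0.23. These points share the same libraries and are given as a description. When each log2 fold change was taken relative to the median of its GC bin, none of the 6 was called in BRG1-mut (adjusted p of 1 for each), and 3 of all genes were. The same step left 11 members called in BRG1-wt, where TIMP2 fell out (adjusted p 0.0572) and COL1A2 came in (adjusted p 0.0415), and 4 in BRM-wt. Over all genes it left 243 of 17803 called in BRG1-wt. In BRM-wt it left 102 called above and 1 called below their bin median, of 17249 genes. A shift of GC-rich transcripts between the libraries and an effect of the mutant ATPase on these genes cannot be told apart in the BRG1-mut table.

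**Figure D3:**
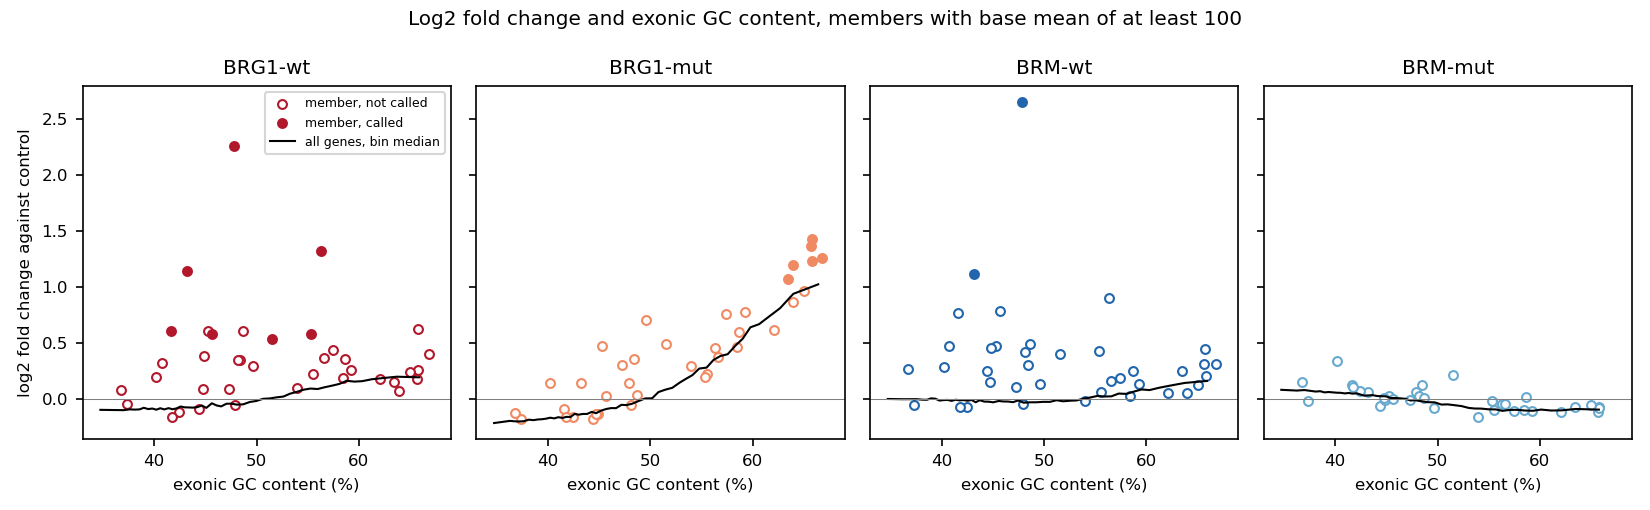
Log2 fold change against control (y axis) and exonic GC content in percent (x axis) of the members with a base mean of at least 100, with a panel per table. Filled points were called and the line is the median of all genes in bins of GC content. In BRG1-mut the 6 called members sit at the GC-rich end of a rising line, and in BRG1-wt and BRM-wt SPARC and LAMB1 stand far above it.

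Base means were also set side by side, for genes with a scaled base mean of at least 10 in either table compared. By this count 6 of 54 members were at least 2-fold higher in BRG1-wt than in BRG1-mut, against 1.32% of 16787 genes. SPARC, TGFBI, PLAT and LAMB3 entered only through BRG1-wt, being at 6.28, 8.15, 2.17 and 1.57 in BRG1-mut. SPARC, TGFBI, PLAT and LAMA3 likewise entered the BRM count only through BRM-wt. SPARC was also selected on these values, and the other members were listed with earlier results known, so the counts are descriptions. For BRM-wt over BRM-mut it was 8 of 52 members, against 1.73% of all genes. In the opposite direction it was 0 of 54 for BRG1-mut and 0 of 52 for BRM-mut, against 0.369% and 0.0240% of all genes. BRG1-mut exceeded BRM-mut by 2-fold or more for 7 of 48 members, against 3.35% of all genes. The 7 were COL6A1, COL6A2, COL18A1, LAMA5, HSPG2, AGRN and ITGB4, whose exons held 63.5% to 66.8% GC. Over all genes, log2 fold change against control and GC content had a rho of 0.83 in BRG1-mut and -0.74 in BRM-mut. The share over all genes was not matched for GC content. Members also had to reach a base mean of 1 in both tables compared, a floor that the shares over all genes did not have. LAMB3, at 0.258 in BRM-mut, was therefore left out of the BRM count. These comparisons have no test and share the control libraries.

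None of the 10 integrin subunits was called in any table, where 1.38%, 4.86%, 0.567% and 0.00703% of all genes tested were, so nothing is read from this count of few genes. Their median log2 fold change was 0.08 with BRG1-wt and 0.15 with BRG1-mut, and 0.02 with BRM-wt and -0.03 with BRM-mut. ITGB1 and ITGA6, the laminin-binding alpha 6 chain, were the lowest members of BRG1-wt, at -0.16 and -0.11, and of BRM-wt, at -0.07 each. ITGA1, the alpha 1 chain of a collagen receptor, had -0.18 in BRG1-mut and -0.05 in BRM-wt. In BRM-mut the highest members at a base mean of 100 or more were ITGA2 at 0.35, NID1 at 0.22 and ITGAV at 0.15, and the lowest ITGB5 at -0.16, LAMA5 at -0.11 and TGFB1 at -0.11, all with an adjusted p of 1.00. Neither TGF-beta ligand, TGFB1 nor TGFB2, was called.

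Although ITGB1 was not called for expression, it carried the splicing event with the most listings among the members. Each splicing table pairs a transfected library with the like-numbered control library. It lists exons whose PSI changed with a MISO Bayes factor above 10. An event is an exon with a given upstream and downstream exon. Its PSI is the fraction with the exon among the transcripts of that event, and not among all transcripts of the gene. The splicing tables listed 8 events in 3 of the 57 genes, in ITGB1, SERPINH1 and ITGB5. Among members with a base mean of at least 100, a listed exon was found in 1 of 38 (2.63%) in BRG1-wt, 2 of 37 (5.41%) in BRG1-mut, 1 of 38 (2.63%) in BRM-wt and 1 of 34 (2.94%) in BRM-mut. The shares over all genes at that level were 6.12% in BRG1-wt, 7.57% in BRG1-mut, 9.41% in BRM-wt and 6.36% in BRM-mut. These shares count any gene that overlaps a listed exon, a looser rule than that for the members. By it ITGA1 would also count in BRM-wt, because a listed exon of PELO lies inside it. Each share of the members rests on 1 or 2 genes, and whether they differ from the shares over all genes was not tested.

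The ends of the exons in ITGB1 and SERPINH1 are shown because their use changed most. They were read from GRCh37, 5′ to 3′ on the strand of the gene, with exon bases in capitals and intron bases in lower case.
ITGB1 exon 2, 3′ splice site, chr10:33242732-33242757, minus strand: ttgtggtaatttattttcagATACCT
ITGB1 exon 2, 5′ splice site, chr10:33242509-33242526, minus strand: CCTGATgtaagtagagtg
SERPINH1 exon 2, 3′ splice site, chr11:75274752-75274777, plus strand: actcttctgttttctttcagAATGAA
SERPINH1 exon 2, 5′ splice site, chr11:75274810-75274827, plus strand: TTCCAGgtactttagacc

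ITGB1 exon 2 (chr10:33242521-33242737) is 217 bp long with 48.4% GC, lies in 5 annotated transcripts and is coding in none of them. It is not part of the Ensembl canonical transcript of ITGB1. In control cells its PSI was 0.94 in replicate 1 and 0.64 in replicate 2, so the control libraries themselves differed. In BRG1-mut the PSI was 0.24 in replicate 1 and 0.31 in replicate 2, lower than control in both. In BRG1-wt it was 0.45 in replicate 1, and replicate 2 was not listed. In BRM-wt it was 0.22 in replicate 1 and 0.91 in replicate 2, which are opposite directions against control, and the event was discarded for that group by the rule of the study. BRM-mut had no listing. All replicate 1 values share the control library at 0.94. BRG1-mut was thus the group with a fall listed in both replicates, by a mean PSI difference of -0.52, and the difference between groups was not tested. The base mean of ITGB1 stayed between 37372 and 43765.

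SERPINH1 encodes the collagen chaperone HSP47. Its exon 2 (chr11:75274772-75274815) is 44 bp long, non-coding and in 7 annotated transcripts, but not in the Ensembl canonical transcript. It was listed in replicate 2 of BRG1-mut and in no other table, as 2 events with different upstream exons, with PSI values of 0.92 in control and 0.13 in BRG1-mut, and 0.43 and 0.09. Both events fell, but they come from the same pair of libraries. ITGB5, the beta 5 integrin subunit, had exon 9 (chr3:124527869-124528003, 135 bp, coding, a multiple of 3 in length) listed in replicate 2 of BRM-mut, with a PSI of 0.98 in control and 0.89. By the rules of the study the members held 1 affected exon in BRG1-wt, 2 in BRG1-mut, 0 in BRM-wt and 1 in BRM-mut, all skipped. An exon that lies inside ITGA1 was listed in BRM-wt but matches exon 2 of PELO, and was not counted as a member event.

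**Figure D4:**
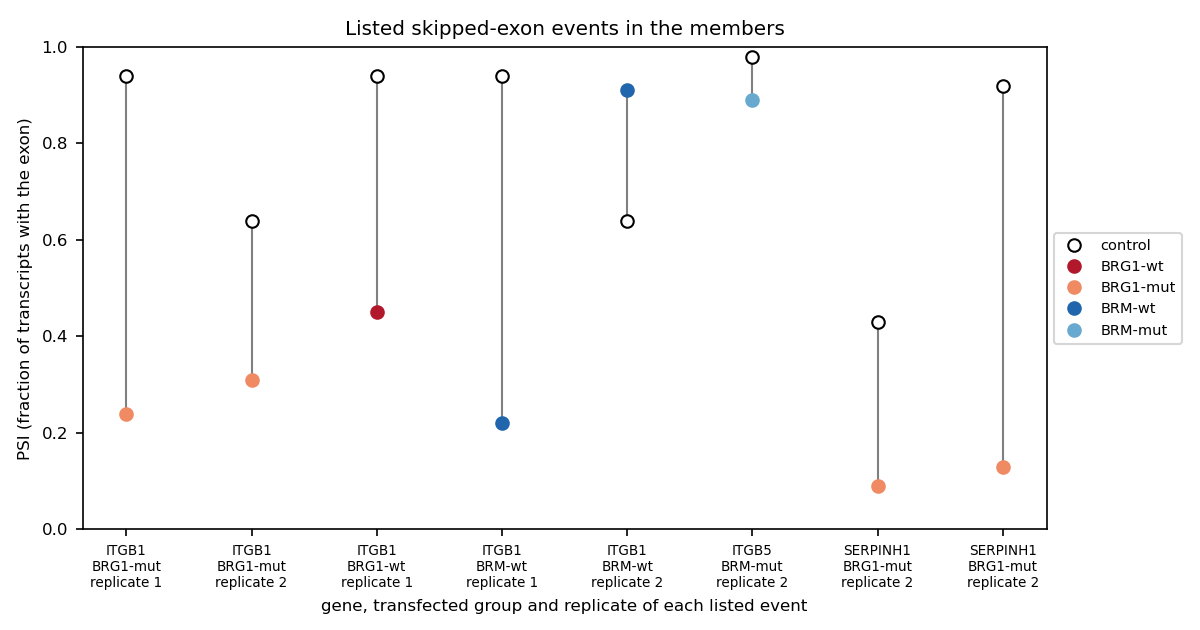
PSI (y axis, a fraction from 0 to 1) of each of the 8 listed events in the members (x axis: gene, group and replicate), with the control library as an open point and the transfected library as a filled point. ITGB1 falls from 0.94 and 0.64 to 0.24 and 0.31 in BRG1-mut and rises from 0.64 to 0.91 in replicate 2 of BRM-wt.

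Of the 125 other matrix, adhesion and protease genes matched in the tables, 7 of 104 tested (6.73%) were called in BRG1-wt and 8 of 81 (9.88%) in BRG1-mut. In BRM-wt it was 3 of 104 (2.88%), and in BRM-mut 0 of 120 (0 also at an unadjusted p under 0.05). The shares over all genes tested were 1.38% in BRG1-wt, 4.86% in BRG1-mut, 0.567% in BRM-wt and 0.00703% in BRM-mut. These genes too were listed with earlier results known, so the counts are descriptions. MMP1, the interstitial collagenase, had a log2 fold change of 1.96 (adjusted p 6.97e-27) in BRG1-wt and 1.84 (adjusted p 4.32e-08) in BRM-wt. TNS3, which encodes the focal adhesion protein tensin 3, had 1.04 (adjusted p 5.19e-06) and 1.23 (adjusted p 0.00352). Both genes were thus called in both wild-type tables. In BRG1-wt, MMP24 and EFEMP1 were also called, with log2 fold changes of 0.92 and 0.83. In BRG1-mut the 5 with the lowest adjusted p were LTBP4, GPC1, BCAR1, CTSD and BSG, with log2 fold changes of 1.34, 1.36, 1.12, 1.15 and 1.05 in that order, and exonic GC contents of 63.9%, 64.8%, 63.6%, 63.9% and 63.5%. None of the 8 was called in BRG1-mut after the trend with GC content was subtracted.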

How the data were processed

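Polyadenylated RNA of C33A cells was sequenced in 10 libraries. The authors mapped reads to GRCh37 (hg19) with TopHat2 2.0.4, counted them with HTSeq 0.6.1 (duplicates included) and ran DESeq2 with default options, its version not given in the sources used here. Shrunken log2 fold changes with standard errors are deposited for each group. The p-values in the deposited tables are those of the authors' Wald tests, unadjusted and adjusted by Benjamini-Hochberg. The base mean is treated as a score of the level, deposited as the mean of normalised counts over 4 libraries. PSI was deposited as a fraction by the authors, from MISO, with a Bayes factor score capped at 1e+12. These columns of the authors' comparisons were used because the tables hold no counts per library, so edgeR could not be run. A second copy of the BRG1-wt table and a damaged column of log2 PSI ratios were not used.

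Members and lists were chosen with earlier results of these data known. Members were named if called in any table, if among the 3 highest or lowest log2 fold changes of a table at a base mean of at least 100, or by their exon events. From the other genes, those called were named, at most 5 per table. Not every such gene is reported here. Called genes are those whose adjusted p was under 0.05. The lower bounds between 2 transfected groups were added after seeing the data. Affected exons needed a Bayes factor above 10, no opposite direction between replicates or groups, and at least 50% of the length of the longest form sharing an end. GC content was computed over the union of GENCODE exons (version 44 lifted to GRCh37), and medians of 50 bins of genes were subtracted. On simulated data, the subtraction recovered 99.5% of 200 changed genes in the settings of BRG1-wt (17803 genes, 7 unchanged genes called), BRG1-mut (13230, 14 called) and BRM-wt (17249, 9 called), and 98.5% in that of BRM-mut (27364, 9 called). Each changed gene had a base mean of at least 100 and the same large multiple of its SE, with normal noise. Recovery of weaker changes, or of genes at lower levels, was not measured. Alternatives were other thresholds, filters, scalings, exon rules and each replicate left out. Python 3.11.15, pandas 2.3.3, numpy 2.4.6, scipy 1.17.1, pysam 0.24.0 and matplotlib 3.10.9 were used. Depth per library is unknown, so no counting intervals can be given. Other experiments of the study were not analysed here.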

Additional observations from a re-analysis of the deposited data

How the results depend on the processing

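With a base mean of at least 100 required, 7 members were called in BRG1-wt and 2 in BRM-wt, against 11 and 4, because TGFBI, PLAUR, MMP2 and PLAT lie below that level. With a log2 fold change of at least 1, 3 were called in BRG1-wt. At an adjusted p under 0.01, 1 member and 1 of the other genes were called in BRG1-mut. With the trend with GC content subtracted, 0 members and 0 other genes were called in BRG1-mut, and the members' median log2 fold change there was 0.11 against 0.36. When an exon had to be listed in both replicates, the affected exons numbered 0 in BRG1-wt, 1 in BRG1-mut and 0 in BRM-mut. When PSI had to change by 0.2 or more, BRM-mut had 0. Leaving out each replicate of the exon tables in turn gave 0 to 1 exons in BRG1-wt, 1 to 1 in BRG1-mut, 0 to 1 in BRM-wt and 0 to 1 in BRM-mut. The other 87 recomputed values stayed within 1.5 times a count or on the same side of a threshold, among them the 16 lower bounds recomputed under both other scalings, those of called members over control. No paired analysis was possible because the expression tables hold no counts per library, and each exon table already pairs a library with its control. With 2 replicates per group and unknown depth, small changes of low genes could not be detected.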
